A study of Mus musculus with 11 samples.

Results

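The genes described here build and guard the protein content of mitochondria: 38 genes of protein import, of protein folding in the matrix and of proteolysis, chosen as a named list by function. All 38 were found among the 15113 genes of the count table, and all 38 passed the filter on low counts that left 13025 genes for testing. Messenger RNA was measured by QuantSeq, which primes on the poly(A) tail and counts each transcript once by a tag near its 3′ end. The cells were C2C12, a mouse skeletal myoblast line, labelled as early stage myotubes at passages 2 to 5. The 6 control libraries carried a random short hairpin RNA (shRandom), and the 5 Drp1 libraries carried a hairpin against Drp1 (shDRP1), the GTPase that divides mitochondria, encoded by Dnm1l. Whether a hairpin culture came from 1 clone, and whether the libraries came from separate cultures, is not given in the sources used here, so any p-value speaks only of library-to-library spread, part of which can be technical.

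Nearly all mitochondrial proteins are made in the cytosol and imported. Precursors pass the outer membrane through the TOM complex. From there, small TIM chaperones escort hydrophobic proteins across the intermembrane space to the TIM22 carrier channel or the SAM complex, and the TIM23 channel passes presequence proteins into the matrix, where the chaperone Hspa9 pulls them in and a processing peptidase removes the presequence. Matrix chaperonins fold the products, and ATP-dependent proteases of the matrix and inner membrane degrade what fails. Skeletal muscle expands this machinery when myoblasts differentiate, and loss of mitochondrial proteostasis can raise stress transcription factors such as Atf4 and Atf5.

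The targeted gene followed its labels. Dnm1l was at 67.1 to 86.3 CPM (counts scaled to one fixed library size, with TMM factors) in control libraries, with a median of 83.0. Drp1 replicates 1 to 5 held 19.1, 14.5, 18.1, 21.0 and 20.6 CPM. By edgeR's quasi-likelihood test this was a log2 fold change of -2.07 (SE 0.11, adjusted p = 2.7e-10). Total counts ran from 15702942 to 23082617 in control and from 12277622 to 20706327 in Drp1 libraries. Muscle marker levels in the Drp1 group did not match the label of early stage myotubes. All 8 markers of differentiated muscle (Myog, Myh3, Myh8, Ckm, Acta1, Tnnc1, Tnnt3 and Actn3) were lower. Their summed level was 9724 to 10763 CPM in control and 81.0 to 112 CPM in Drp1 libraries (unscaled library totals, here and for the other marker sums). Myoblast markers (3 of 4 lower, Myf5 higher) summed to 811 to 1055 CPM and 91.7 to 129 CPM. Smooth muscle markers (3 of 4 analysed here, all higher) summed to 2508 to 2994 CPM in control and 8448 to 10435 CPM in Drp1 libraries. Fibroblast markers (3 of 4 analysed here) summed to 84.4 to 117 CPM in control and 286 to 424 CPM in Drp1 libraries, with Dcn higher and Dpt lower. Endothelial markers were not analysed here, and macrophage markers (2 of 4 analysed here) summed to at most 2.67 CPM in any library. Libraries also differed within groups. Control replicates 1 and 4 and Drp1 replicates 2 and 5 lay at the ends of a within-group axis that held 41.2% of the within-group variance. With the libraries at the upper end (control 1, Drp1 2) both left out, edgeR called 22 members lower and 5 higher, the counts found with all libraries.

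Import, chaperone and protease genes were more often lower than higher in the Drp1 libraries. Of the 38, 22 fell and 5 rose at an adjusted p below 0.05, and 11 did not pass. This is 57.9% lower and 13.2% higher, where 33.3% of all genes tested were lower and 33.9% higher. The changes were small: the median log2 fold change was -0.28, against 0.03 over all genes tested, and the members spanned -1.26 (Htra2) to 0.85 (Pmpcb, not past the threshold). Calls of at least 1.5-fold were made for 10 lower members (26.3%) and 1 higher (2.63%), against 20.6% and 20.7% of all genes. At 2-fold, 4 lower members were called (10.5%: Htra2, Timm10, Hspa9 and Lonp1) and no higher one, against 13.7% and 11.2% of all genes. The share of members lowered at least 2-fold was thus not above that of all genes. The libraries of both groups did not overlap for 17 members (44.7%), which is close to the 48.9% seen over all genes. With library totals alone as the scaling, 17 members were called lower and 7 higher, where 28.8% of all genes were called lower and 40.0% higher, and the median of all genes moved by 0.10. In bulk RNA, fewer cells of a type and less RNA per cell cannot be told apart. The muscle, smooth muscle and fibroblast markers moved across the same groups as these changes, and their part in them was not tested.

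**Figure D1:**
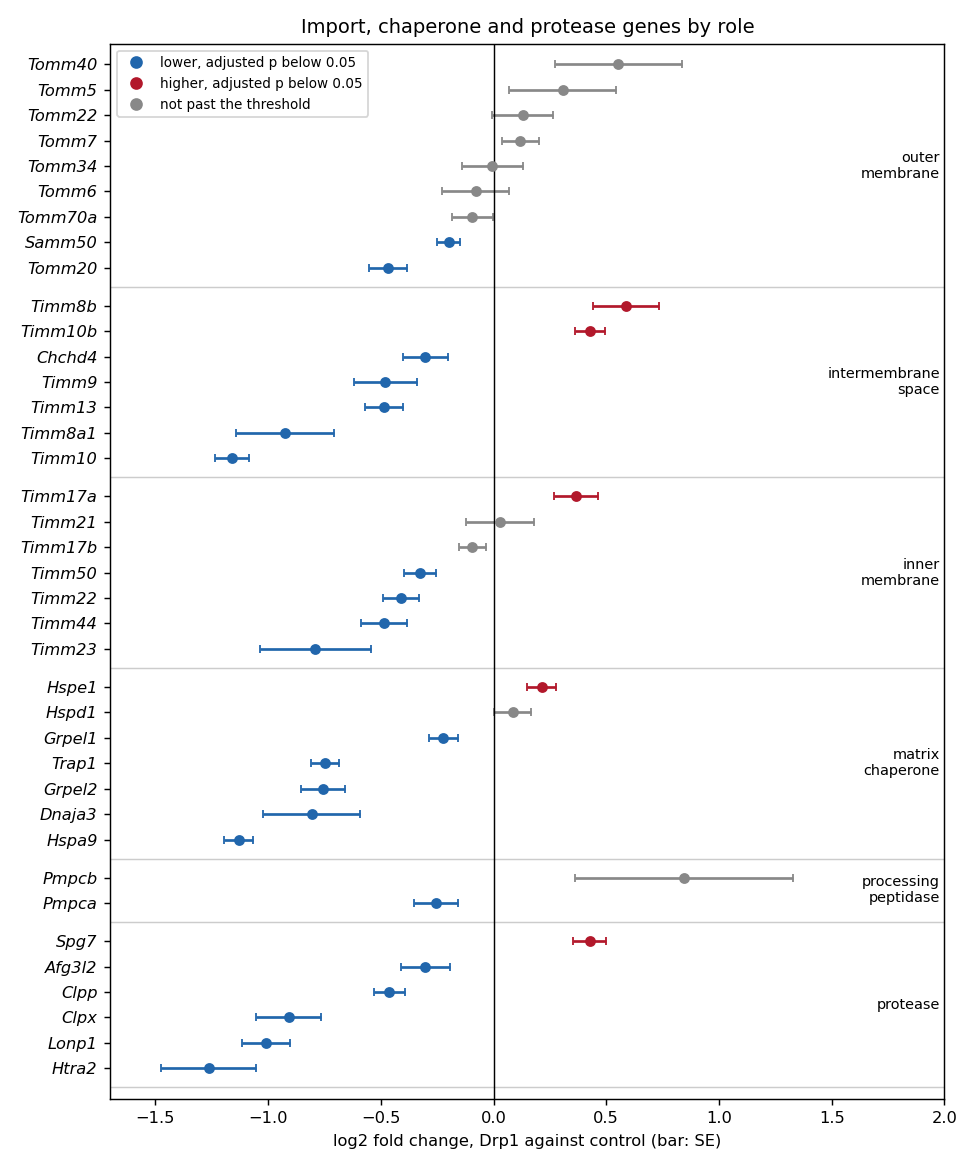
Each point is the log2 fold change of 1 gene in the Drp1 libraries (n = 5) against the control libraries (n = 6), with its SE as the bar, ordered within each role. The largest decreases, Htra2 at -1.26, Timm10 at -1.16, Hspa9 at -1.13 and Lonp1 at -1.01, lie in the intermembrane space, matrix chaperone and protease groups, and the lowest outer membrane gene, Tomm20, is at -0.47.

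**Figure D2:**
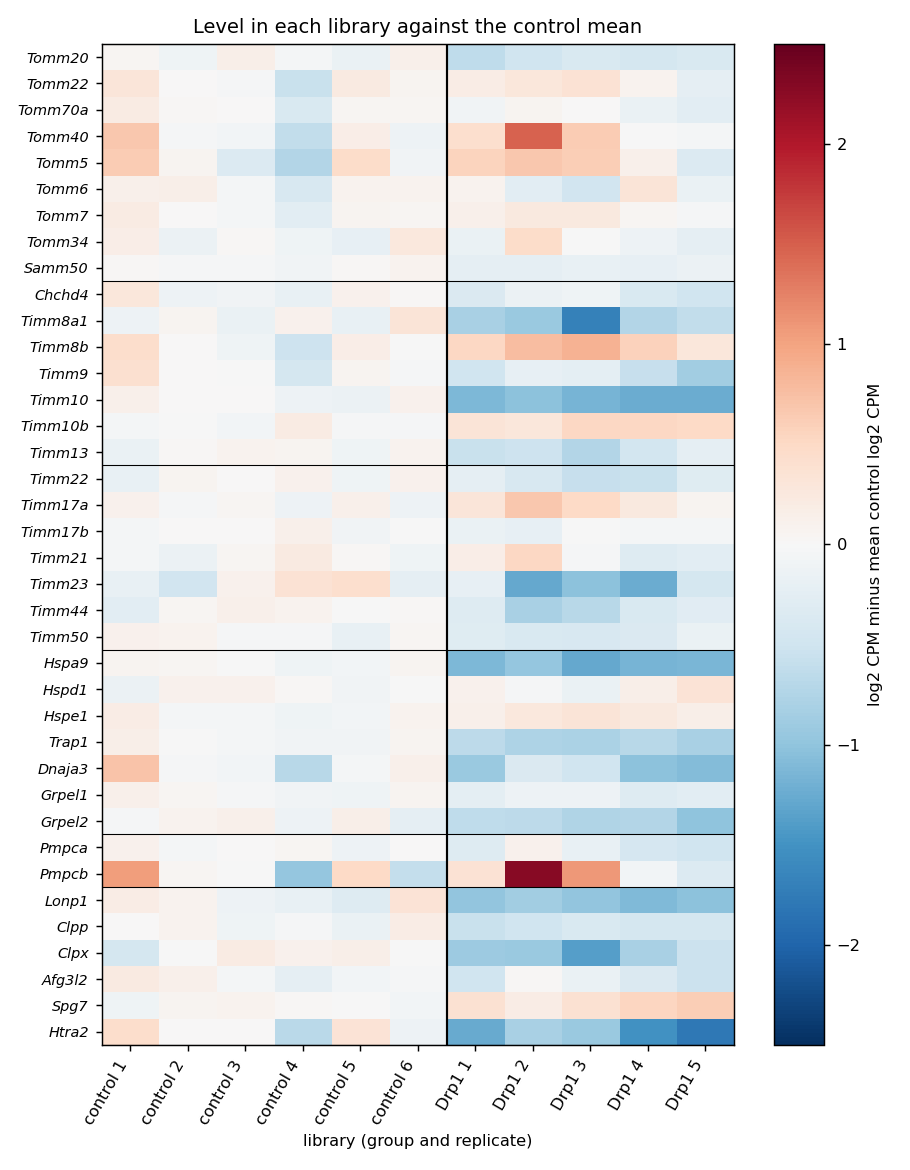
Each row is 1 gene and each column 1 library, coloured by log2 CPM minus the mean log2 CPM of the 6 control libraries. Hspa9, Timm10, Trap1, Lonp1 and Htra2 are below the control mean in all 5 Drp1 libraries, while Pmpcb and Tomm40 vary widely within each group, with Drp1 replicate 2 highest.

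The 4 promoters printed here belong to members that moved apart: Timm10 and Lonp1 fell, Timm10b, a small TIM like Timm10, rose, and Hspe1, which shares a start region with Hspd1, rose slightly. Each holds 300 bases, 250 before and 50 after the RefSeq start on GRCm38.p6, read 5′ to 3′ on the gene's strand. Capitals mark matches, on either strand, to TTCNNGAA (the core of a heat shock element) or CCGGAAG (an ETS-type motif), which overlap where both occur as TTCCGGAAG. Timm10 lies at chr2:84826771-84827070 on the plus strand, Lonp1 at chr17:56626854-56627153 on the minus strand, Hspe1 at chr1:55087898-55088197 on the plus strand and Timm10b at chr7:105640195-105640494 on the plus strand.
Timm10: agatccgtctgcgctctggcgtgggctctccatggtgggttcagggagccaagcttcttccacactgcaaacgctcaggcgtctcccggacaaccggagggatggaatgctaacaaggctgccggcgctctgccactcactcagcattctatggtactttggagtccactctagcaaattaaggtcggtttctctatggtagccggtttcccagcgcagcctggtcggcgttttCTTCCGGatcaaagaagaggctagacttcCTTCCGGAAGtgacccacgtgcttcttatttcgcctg
Lonp1: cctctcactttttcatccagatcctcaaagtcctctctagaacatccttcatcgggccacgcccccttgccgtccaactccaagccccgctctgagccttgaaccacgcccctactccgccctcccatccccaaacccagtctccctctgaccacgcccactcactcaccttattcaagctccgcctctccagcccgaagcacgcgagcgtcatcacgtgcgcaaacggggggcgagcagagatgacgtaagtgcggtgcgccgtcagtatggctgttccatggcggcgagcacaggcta
Hspe1: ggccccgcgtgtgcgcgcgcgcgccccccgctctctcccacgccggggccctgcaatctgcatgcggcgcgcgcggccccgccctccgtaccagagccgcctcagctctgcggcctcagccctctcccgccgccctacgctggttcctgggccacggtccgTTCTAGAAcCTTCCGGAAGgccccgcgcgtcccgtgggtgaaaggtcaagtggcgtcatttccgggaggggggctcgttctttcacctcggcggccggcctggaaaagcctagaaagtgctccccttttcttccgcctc
Timm10b: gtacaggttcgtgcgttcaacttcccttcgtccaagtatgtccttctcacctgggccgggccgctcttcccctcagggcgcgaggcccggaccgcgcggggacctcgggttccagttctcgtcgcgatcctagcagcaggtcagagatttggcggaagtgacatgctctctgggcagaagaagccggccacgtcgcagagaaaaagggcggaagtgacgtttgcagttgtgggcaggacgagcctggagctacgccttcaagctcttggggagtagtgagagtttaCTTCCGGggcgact

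Timm10 held TTCCGGAA beginning 14 bases after the start, and Hspe1 held TTCTAGAA and TTCCGGAA beginning 89 and 79 bases before it. The window of Lonp1 held no match to any motif searched. Promoter sequences were matched for 32 of the 38 members. TTCNNGAA occurred in 8 of these 32 members (25%) and in 8.52% of all 32851 promoter windows. The 8 were Clpp, Hspd1, Hspe1, Timm9, Timm10, Timm13, Tomm20 and Tomm22, which fell, rose or did not pass the test in these data. CCGGAAG was found in 14 members (43.8%) and in 8.86% of all windows, the NRF1-type letters GCGCANGCG in 8 members (25%) and 6.25% of windows, and CCAAT in 11 members (34.4%) and 37.4% of windows. TGATGNAA, letters of an Atf4-type site, was found in none of the 32 members and in 3.97% of all windows. These are matches of letters in short windows and were not tested against the fold changes. The 32851 windows were not limited to genes tested here, so the shares do not compare members with other expressed genes.

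At the outer membrane, most genes did not pass the test. Of 9, 2 fell (22.2%) and none rose, against 33.3% lower and 33.9% higher among all genes tested. Tomm20, the receptor that binds presequences, was at 21.3 to 26.2 CPM in control libraries (median 23.8) and at 15.3, 16.8, 18.3, 17.5 and 18.4 CPM in Drp1 replicates 1 to 5. Every Drp1 library lay below every control library, giving a log2 fold change of -0.47 (SE 0.08, adjusted p = 0.00018, edgeR). Samm50, the core of the SAM complex that inserts beta-barrel proteins, was at 131 to 148 CPM in control libraries (median 140.2). Its Drp1 values were tightly placed at 119 to 126 CPM, also without overlap (log2 fold change -0.20, SE 0.05, adjusted p = 0.0030). The decrease of Samm50 did not pass with library totals alone (adjusted p = 0.096) or upper quartile scaling (adjusted p = 0.062). The central receptor Tomm22 was at 50.7 to 92.5 CPM in control libraries (median 76.7) and at 85.4, 90.9, 96.0, 79.2 and 64.3 CPM in Drp1 libraries. These ranges overlapped (log2 fold change 0.13, adjusted p = 0.42).

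The channel itself, Tomm40, could not be placed in either direction. Its control libraries ran from 19.6 to 47.4 CPM (median 28.7), and the Drp1 libraries held 40.2, 82.5, 46.4, 29.5 and 28.9 CPM. The log2 fold change of 0.55 (SE 0.28, adjusted p = 0.10) was 0.22 without Drp1 replicate 2 and was past the threshold without control replicate 1 (0.71, adjusted p = 0.040). The receptor Tomm70a and the small TOM subunits Tomm5, Tomm6 and Tomm7, as well as the cytosolic cofactor Tomm34, did not pass either, with log2 fold changes from -0.09 for Tomm70a to 0.31 for Tomm5. Tomm7 passed as higher with library totals alone (adjusted p = 0.046) and with upper quartile scaling (adjusted p = 0.042). Tomm70a, Tomm6 and Tomm34 overlap Nit2, Usp49 and Stk4 on the other strand, with log2 fold changes of -0.28, 1.82 and 0.04. Without a stated strand setting, reads from these overlaps cannot be told apart. Tomm34 and Stk4 start 847 bases apart, so their overlap lies at the starts, while QuantSeq tags lie near the 3′ end. The end of the Tomm6 transcript is also identical over 307 bases to Gm21981, a copy not analysed here. The log2 ratio of Tomm20 to Tomm22 counts within a library, which no scaling of libraries can change, went from -1.65 ± 0.32 (SD, n = 6) in control to -2.26 ± 0.28 (SD, n = 5) with the Drp1 hairpin (exact permutation test over 462 splits, 2-sided, p = 0.013, adjusted over 10 ratios 0.019). The presequence receptor thus fell on average relative to the central receptor, though the ranges of the ratio overlapped (control lowest -2.03, Drp1 highest -1.81).

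In the intermembrane space, all 7 genes passed the test, 5 lower (71.4%) and 2 higher (28.6%). Of all genes tested, 33.3% were lower and 33.9% higher, so most genes passed. Timm10, which pairs with Timm9 in the main small TIM chaperone, was at 43.4 to 53.0 CPM in control libraries (median 48.8). Drp1 replicates 1 to 5 held 22.2, 23.8, 21.6, 20.4 and 20.4 CPM. The groups were far apart relative to their spread, with a log2 fold change of -1.16 (SE 0.08, adjusted p = 4.3e-09, edgeR), a 2.24-fold decrease. Its partner Timm9 was at 43.9 to 79.2 CPM in control libraries (median 59.7) and at 42.5, 51.5, 50.4, 40.0 and 32.8 CPM in Drp1 libraries. The Timm9 ranges overlapped and its decrease was smaller (log2 fold change -0.48, SE 0.14, adjusted p = 0.0082). The log2 ratio of Timm9 to Timm10 rose from 0.31 ± 0.22 (SD, n = 6) to 0.99 ± 0.20 (SD, n = 5), with no overlap between groups (two-sided exact permutation test, p = 0.00216, adjusted over 10 ratios 0.011), and 462 splits can give no smaller p.

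Timm10b, the small TIM that docks the chaperone at the TIM22 channel, moved the other way. It was at 61.4 to 73.9 CPM in control libraries (median 63.3) and at 80.8, 78.2, 92.2, 92.4 and 91.0 CPM in Drp1 libraries. Every Drp1 library was above every control library (log2 fold change 0.43, SE 0.07, adjusted p = 6.3e-05). Its gene overlaps Arfip2 (log2 fold change 0.66) on the other strand, with starts 360 bases apart. The overlap thus lies at the starts, while QuantSeq tags lie near the 3′ end. Without a stated strand setting, any reads within the overlap cannot be told apart.

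The second small TIM chaperone pairs Timm8a1 with Timm13, and Timm8b is a close relative of Timm8a1. Timm8b was at 46.4 to 91.0 CPM in control libraries (median 66.8) and at 95.2, 115, 121, 98.8 and 81.3 CPM in Drp1 libraries. Drp1 replicate 5 lay within the control range, giving a log2 fold change of 0.59 (SE 0.15, adjusted p = 0.0028). Timm8b overlaps Nkapd1 on the other strand, which had a log2 fold change of -0.45. Without a stated strand setting, reads from the overlap cannot be told apart. Timm8a1, by contrast, was measured by few counts, 18 to 32 per control library and 8 to 17 per Drp1 library. It was at 1.16 to 1.65 CPM in control libraries (median 1.30) and at 0.754, 0.696, 0.412, 0.801 and 0.873 CPM in Drp1 libraries. The groups did not overlap (log2 fold change -0.92, SE 0.22, adjusted p = 0.0016). Within libraries, the log2 ratio of Timm8a1 to Timm8b went from -5.62 ± 0.44 (SD, n = 6) to -7.15 ± 0.61 (SD, n = 5), a 2.88-fold lower ratio (two-sided exact permutation test, p = 0.00216, adjusted over 10 ratios 0.011). The relatives thus changed in opposite directions.

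Timm13 was at 113 to 135 CPM in control libraries (median 131) and at 86.5, 88.7, 76.0, 92.4 and 109 CPM in Drp1 libraries, without overlap. Its log2 fold change was -0.49 (SE 0.09, adjusted p = 0.00015). The log2 ratio of Timm8a1 to Timm13 fell by 0.43, with ranges that just overlapped (two-sided exact permutation test, p = 0.0065, adjusted over 10 ratios 0.013). With 5 in place of 0.5 added to each count, that difference was -0.22 (adjusted 0.046). Chchd4, the oxidoreductase that forms the disulfides of small TIM proteins, was at 26.4 to 36.5 CPM in control libraries (median 29.5) and at 23.3, 27.1, 28.1, 23.0 and 21.2 CPM in Drp1 libraries. These ranges overlapped (log2 fold change -0.30, SE 0.10, adjusted p = 0.016), and the call was lost with library totals alone (adjusted p = 0.12) and upper quartile scaling (adjusted p = 0.072), and with the replicate number as a block (0.063).

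At the inner membrane, 4 of 7 channel genes fell (57.1%), 1 rose (14.3%) and 2 did not pass, against 33.3% lower and 33.9% higher among all genes. Timm44, which tethers Hspa9 to the TIM23 channel, was at 78.7 to 103 CPM in control libraries (median 97.4). Drp1 replicates 1 to 5 held 76.2, 53.7, 58.8, 73.0 and 78.2 CPM, all below the lowest control library (log2 fold change -0.48, SE 0.10, adjusted p = 0.00074). The lowest control library, replicate 1, lay within 1 CPM of the highest Drp1 library. Timm22, the pore of the carrier channel, was at 61.8 to 75.8 CPM in control (median 72.3) and 47.1 to 59.97 CPM in Drp1 libraries, and Timm50, the receptor of the TIM23 complex, at 32.6 to 40.0 CPM (median 37.4) and 28.2 to 32.9 CPM. Their log2 fold changes were -0.41 and -0.33 (adjusted p = 0.00040 and 0.00099), with an overlap only for Timm50. Timm23, the pore that names its complex, was counted by 10 to 44 tags per library, at 1.35 to 2.51 CPM in control (median 1.84) and 1.62, 0.773, 0.927, 0.801 and 1.40 CPM in Drp1 libraries (log2 fold change -0.79, SE 0.25, adjusted p = 0.011). The end of the Timm23 transcript is identical over 375 bases to Gm10273, a copy not analysed here, so its level is uncertain.

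The paralogs Timm17a and Timm17b, alternative subunits of the TIM23 channel, differed in their change. Timm17a was at 55.5 to 66.8 CPM in control libraries (median 61.4) and at 75.1, 97.1, 86.3, 72.2 and 63.7 CPM in Drp1 libraries, where only replicate 5 lay within the control range (log2 fold change 0.37, SE 0.10, adjusted p = 0.0042). Timm17b was at 70.8 to 83.0 CPM in control libraries (median 75.6) and at 67.0, 65.8, 75.4, 73.3 and 73.3 CPM in Drp1 libraries (log2 fold change -0.09, adjusted p = 0.18). Their log2 ratio, Timm17a to Timm17b went from -0.31 ± 0.18 (SD, n = 6) to 0.14 ± 0.28 (SD, n = 5), with overlapping ranges (two-sided exact permutation test, p = 0.011, adjusted over 10 ratios 0.018). Timm21, which links the outer and inner channels, was at 4.82 to 6.24 CPM in control (median 5.32) and 4.29 to 7.66 CPM in Drp1 libraries (adjusted p = 0.88).

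Among matrix chaperones, the import motor fell and the chaperonin did not. Hspa9, the matrix Hsp70 that drives import, was at 707 to 806 CPM in control libraries (median 772). Drp1 replicates 1 to 5 held 351, 392, 316, 341 and 349 CPM, far below every control library. This amounts to a log2 fold change of -1.13 (SE 0.06, adjusted p = 1e-09, edgeR), a 2.19-fold decrease. Hspa9 alone took 0.0742% ± 0.0045 (SD, n = 6) of all control counts and 0.0363% ± 0.0030 (SD, n = 5) of Drp1 counts. The 38 members together took 0.306% ± 0.020 (SD, n = 6) and 0.267% ± 0.015 (SD, n = 5), and without Hspa9 they took 0.232% ± 0.016 and 0.230% ± 0.014. As shares of unscaled library totals, the summed counts of the members thus differed mainly by Hspa9. Shifts by role in both directions are hidden in that sum. Proteases took 0.0383% of control and 0.0304% of Drp1 counts, and outer membrane genes 0.0626% and 0.0682%.

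The co-chaperones of Hspa9 fell with it to different extents. Grpel2, a nucleotide exchange factor, was at 15.1 to 19.3 CPM in control libraries (median 18.0) and at 11.3, 11.2, 10.4, 10.5 and 8.78 CPM in Drp1 libraries, without overlap (log2 fold change -0.76, SE 0.10, adjusted p = 7.5e-06). Its paralog Grpel1 was at 55.4 to 65.0 CPM in control libraries (median 60.4) and at 50.2, 54.4, 54.5, 47.7 and 50.0 CPM in Drp1 libraries, also without overlap but closer together (log2 fold change -0.22, SE 0.06, adjusted p = 0.0067). That call was lost with library totals alone (adjusted p = 0.13) and upper quartile scaling (adjusted p = 0.071), and the annotated end of Grpel1 overlaps Tada2b on the other strand. Between these paralogs, the log2 ratio of Grpel1 to Grpel2 rose from 1.77 ± 0.19 (SD, n = 6) to 2.30 ± 0.15 (SD, n = 5) with no overlap (two-sided exact permutation test, p = 0.0043, adjusted over 10 ratios 0.011). Dnaja3, a J-protein of the matrix, varied widely, from 14.6 to 39.0 CPM in control libraries (median 23.1) and with 12.5, 18.6, 16.9, 11.7 and 11.2 CPM in Drp1 libraries. Only control replicate 4 lay within the Drp1 range (log2 fold change -0.81, SE 0.22, adjusted p = 0.0048). Dnaja3 overlaps Vasn on the same strand and Coro7 on the other.

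Trap1, the mitochondrial Hsp90, was at 65.9 to 77.4 CPM in control libraries (median 69.2) and at 44.5, 41.5, 40.4, 43.2 and 39.9 CPM in Drp1 libraries. The groups were far apart, with a log2 fold change of -0.75 (SE 0.06, adjusted p = 6.6e-08). The chaperonin Hspd1 and its lid Hspe1, whose genes start 111 bases apart on opposite strands of chromosome 1, did not fall. Hspd1 was at 170.2 to 201 CPM in control libraries (median 189) and at 201, 183, 167, 207 and 236 CPM in Drp1 libraries (log2 fold change 0.08, SE 0.08, adjusted p = 0.38). Hspe1 was at 172 to 209.7 CPM in control libraries (median 179) and at 201, 221, 230.0, 218 and 203 CPM in Drp1 libraries, with overlap (log2 fold change 0.21, SE 0.06, adjusted p = 0.0095). The change in their log2 ratio, -0.14, was within the spread of the libraries (two-sided exact permutation test, p = 0.35). Hspd1 passed as higher with library totals alone (adjusted p = 0.039) and with the ribosomal RNA share of each library as a covariate (adjusted p = 0.044). The transcript end of Hspe1 has a copy of 99.2% identity, not analysed here.

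The processing peptidase gave no clear change. Its subunit Pmpca was at 38.4 to 45.1 CPM in control libraries (median 42.1) and at 33.3, 45.01, 36.7, 31.3 and 29.7 CPM in Drp1 libraries (log2 fold change -0.25, SE 0.10, adjusted p = 0.031). That call was lost in 8 of 22 alternatives, among them leaving out control replicate 1 or 6 (adjusted p = 0.052 for each) or Drp1 replicate 1, 4 or 5 (0.071, 0.082 and 0.081), and the gene's end overlaps Inpp5e. The catalytic subunit Pmpcb had the widest spread of all members, 6.74 to 27.3 CPM in control libraries (median 13.4) and 17.1, 64.5, 28.2, 12.6 and 10.5 CPM in Drp1 libraries. Its log2 fold change of 0.85 (SE 0.48, adjusted p = 0.14) was 0.22 without Drp1 replicate 2. The log2 ratio of Pmpca to Pmpcb did not pass (difference -0.93, two-sided exact permutation test, p = 0.082, adjusted over 10 ratios 0.091).

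Proteases fell in 5 of 6 cases (83.3%), and 1 rose (16.7%), against 33.3% lower and 33.9% higher among all genes tested. Lonp1, the matrix AAA+ protease, was at 116 to 184 CPM in control libraries (median 144). Drp1 replicates 1 to 5 held 72.8, 79.0, 73.3, 67.1 and 71.6 CPM, all below the control range (log2 fold change -1.01, SE 0.11, adjusted p = 1e-06, edgeR). Htra2, a serine protease of the intermembrane space, showed the lowest log2 fold change of the members, -1.26 (SE 0.21, adjusted p = 0.00012). It was at 22.4 to 48.6 CPM in control libraries (median 36.0) and at 14.96, 20.3, 18.7, 12.5 and 10.4 CPM in Drp1 libraries, where the highest came close to control replicate 4. The annotated end of Htra2 overlaps Loxl3 and its start lies near Aup1, both on the other strand, with log2 fold changes of -0.45 and -0.44, so part of its counts may not be its own.

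The ClpXP protease pairs the unfoldase Clpx with the peptidase Clpp. Clpx was at 10.5 to 16.3 CPM in control libraries (median 14.7) and at 7.54, 7.42, 5.46, 8.05 and 9.77 CPM in Drp1 libraries, without overlap (log2 fold change -0.91, SE 0.14, adjusted p = 6.1e-05). Clpp was at 66.3 to 84.4 CPM in control libraries (median 74.2) and at 50.8, 52.9, 56.9, 55.1 and 55.2 CPM in Drp1 libraries, also without overlap (log2 fold change -0.46, SE 0.07, adjusted p = 2.9e-05). The difference in their log2 ratio, -0.46, was just outside the threshold (two-sided exact permutation test, p = 0.043, adjusted over 10 ratios 0.054). It passed without control replicate 1 (adjusted 0.020) or Drp1 replicate 5 (adjusted 0.036), and with control 1 and Drp1 2 both left out (adjusted 0.040).

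The subunits of the m-AAA protease of the inner membrane moved in opposite directions. Spg7, known as paraplegin, was at 76.0 to 86.8 CPM in control libraries (median 82.7) and at 107, 92.7, 107, 119 and 124 CPM in Drp1 libraries, without overlap (log2 fold change 0.43, SE 0.07, adjusted p = 0.00014). Afg3l2, its partner, was at 34.5 to 47.3 CPM in control libraries (median 39.2) and at 28.5, 41.1, 35.8, 31.4 and 27.8 CPM in Drp1 libraries (log2 fold change -0.30, SE 0.11, adjusted p = 0.024). The call of Afg3l2 was lost without control replicate 2 (adjusted p = 0.057) or Drp1 replicate 1, 4 or 5 (0.070, 0.053 and 0.064), with library totals alone (0.14) and with upper quartile scaling (0.090). Within libraries, the log2 ratio of Spg7 to Afg3l2 rose from 1.02 ± 0.21 (SD, n = 6) to 1.75 ± 0.38 (SD, n = 5), a 1.66-fold higher ratio (two-sided exact permutation test, p = 0.0043, adjusted over 10 ratios 0.011). The ranges overlapped, with Drp1 replicate 2 at 1.17 and the highest control library at 1.28. Spg7, Tomm20 and Timm44 lie on chromosome 8, and the median log2 fold change of genes tested within 5 megabases of them was 0.21, 0.22 and 0.13.

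**Figure D3:**
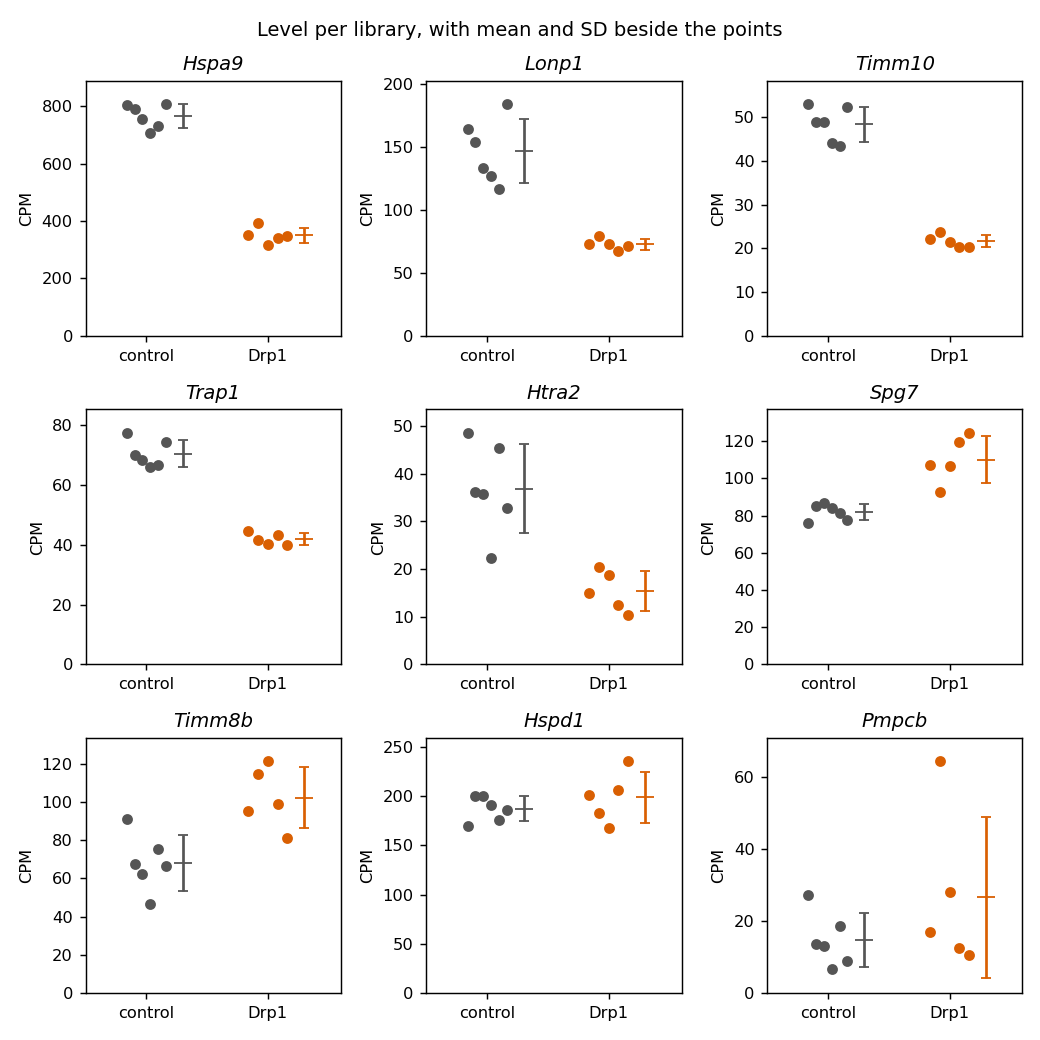
CPM of 9 members in each control (grey, n = 6) and Drp1 (orange, n = 5) library, with the mean and SD beside the points and every axis starting at 0. Hspa9, Lonp1, Timm10, Trap1 and Htra2 do not overlap between groups, Spg7 is higher in every Drp1 library, and in Pmpcb Drp1 replicate 2 stands at 64.5 CPM.

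**Figure D4:**
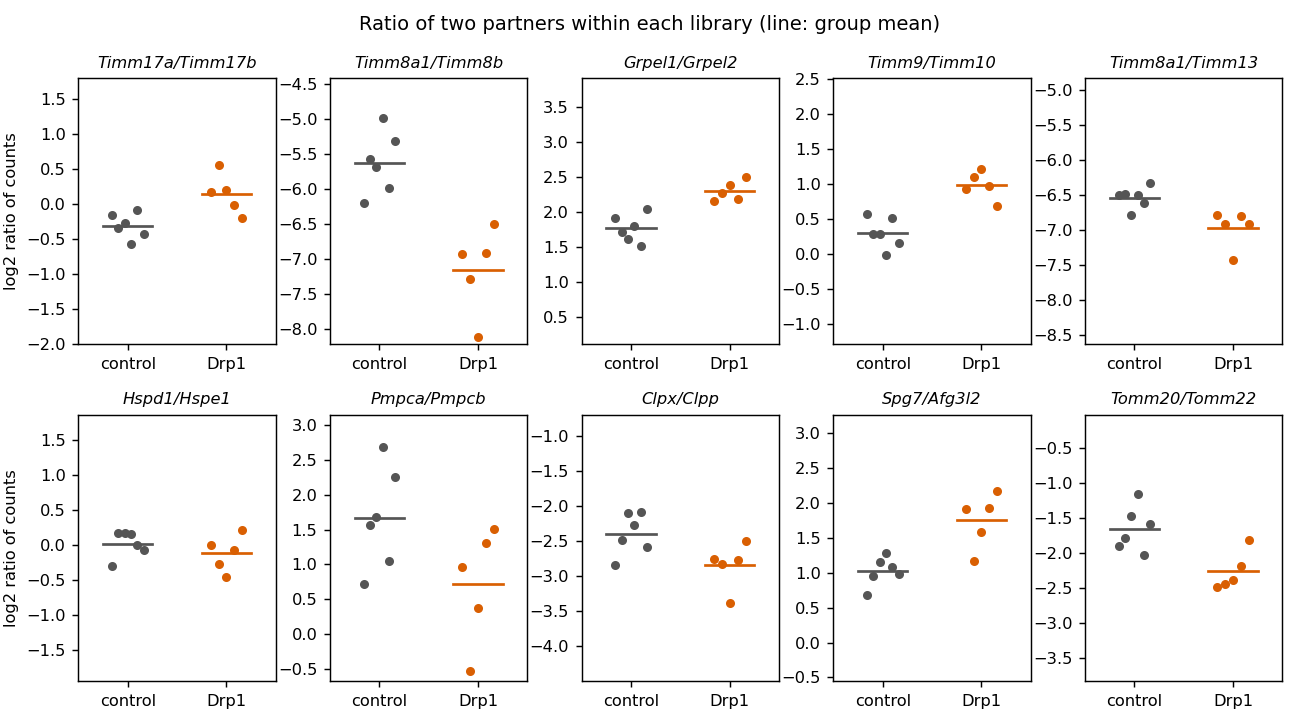
The log2 ratio of the counts of 2 members in each control (grey, n = 6) and Drp1 (orange, n = 5) library, with the group means as lines and the same span on every vertical axis. Timm8a1/Timm8b, Timm9/Timm10 and Grpel1/Grpel2 are separated between groups, and Hspd1/Hspe1 overlaps throughout.

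Of the 10 partner ratios compared, 7 differed between the groups at an adjusted p below 0.05 by the exact permutation test, and Hspd1 with Hspe1, Pmpca with Pmpcb and Clpx with Clpp did not. Among the 7, the ratio of Spg7 to Afg3l2 and that of Timm8a1 to Timm8b joined members called in opposite directions. The ratios compare counts of different genes only through their change between groups. Ratios of other gene pairs were not computed. With 33.3% of all genes tested lower and 33.9% higher, other pairs may differ as often. The 7 of 10 is therefore not shown to be particular to partners.

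Further genes of these pathways were taken from lists by function, and no difference between lists was tested. Of 16 further import genes, such as the carrier insertase subunit Timm29, the metaxins Mtx1 to Mtx3 and the insertase Oxa1l, 6 fell and 2 rose (median log2 fold change -0.06), none past 2-fold. Of 9 further proteases and peptidases 3 fell and 1 rose (median -0.13). The shares lower in these lists, 37.5% and 33.3%, were near the 33.3% of all genes tested. The shares higher, 12.5% and 11.1%, were below the 33.9% of all genes tested. Of 10 genes of folding and membrane scaffolds 6 fell and 1 rose (median -0.39). The one that rose, Ppif, the cyclophilin of the permeability transition, was at 1.93 ± 0.78 CPM in control libraries (SD, n = 6) and 6.97 ± 2.66 CPM (SD, n = 5) with the Drp1 hairpin, a log2 fold change of 1.86 (SE 0.28, adjusted p = 3.9e-05). Of 11 cytosolic chaperones and factors that handle precursors, 5 fell and 3 rose (45.5% and 27.3%, against the same shares, median -0.14). Dnaja2 among them was at 706 ± 62.5 CPM in control libraries (SD, n = 6) and 226 ± 16.3 CPM (SD, n = 5) with the Drp1 hairpin, and 69 of 84 genes tested within 5 megabases of it on chromosome 8 were also lower.

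Stress regulators linked to mitochondrial proteostasis were lower as well. Of 11, 8 fell and 2 rose (72.7% and 18.2%, against 33.3% and 33.9% of all genes tested, median log2 fold change -1.22). Atf4, the transcription factor of the integrated stress response, was at 2500.2 ± 263 CPM in control libraries (SD, n = 6) and 896 ± 141 CPM (SD, n = 5) with the Drp1 hairpin, and its targets Asns and Chac1 had log2 fold changes of -1.45 and -1.83. Cebpb was at -1.74. The kinases Eif2ak1 and Eif2ak3, which sit upstream of Atf4, were the 2 that rose, by 0.15 and 0.63 on the log2 scale (adjusted p = 0.046 and 0.0011, edgeR). Genes of other mitochondrial systems were also more often lower than higher. Of 76 mitochondrial ribosomal protein genes 46.1% were lower and 19.7% higher (median -0.16). Of 82 genes with symbols of nuclear respiratory subunits 61.0% were lower and 7.32% higher (median -0.29). The second list was taken by symbol alone, and also holds entries such as Atp5l-ps1 and Atp5l-ps2. Its log2 fold changes ran from -6.74 to 4.92. Whether the import, chaperone and protease genes differ from these lists was not tested.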

How the data were processed

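Messenger RNA was measured by QuantSeq in 6 control and 5 Drp1 libraries, grouped by the hairpin in their titles. Reads were aligned in BlueBee, per the series text. Per the submitters' processing notes, the builds are GRCm38 and mm10 and DESeq2 version 1.22.2 was used. Aligner settings, the counter, strandedness and the gene annotation: not given in the sources used here. Whole-number counts per gene were deposited by the authors, who also deposited a signal that equals the count divided by 1 size factor per library, used only to check that scaling. Identifiers were matched to symbols in a reference table (15080 of 15113), positions to GENCODE M21 on GRCm38, and promoters to RefSeq on GRCm38.p6.

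Counts were filtered with filterByExpr by group, scaled by TMM and tested over 13025 genes with edgeR (version 4.0.16, run under R 4.3.3; robust quasi-likelihood, group as the only term, Benjamini-Hochberg adjustment, threshold 0.05). Each SE is the absolute log2 fold change over the square root of F. Partner ratios are log2 ratios of counts plus 0.5 within a library, tested over all 462 splits. No set test was run. Transcript ends (400 bases) were searched against all transcripts at 95% identity over at least 150 bases.

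The members, lists, tests and the rule for named genes were chosen with earlier results of these data known. The rule names all members, with full values for those changed at least 1.5-fold or in a partner ratio, Dnm1l, and up to 4 genes per further list past the threshold and 2-fold. Other genes named from those lists, and all neighbours, were named after their values were seen. Alternatives were other scalings, limma-voom (limma version 3.58.1), DESeq2 version 1.42.0, a stricter or no filter on low counts, the replicate number as a block, thinning to the smallest library, 5 in place of 0.5 added in ratios, stricter calls and leaving out each library. Chosen after the data had been seen were a covariate for ribosomal RNA counts and a fit lacking both control 1 and Drp1 2. Chi-square per degree of freedom between replicates of a group was 5.03 to 57.1, so replicates differed by more than sampling noise. Data were also simulated over 13025 genes, with only 50 genes changed at each fold. There edgeR found 16% of the 1.25-fold changes, 54% of the 1.5-fold, 84% of the 2-fold and 96% of the 4-fold ones. Of its 134 calls, 9 were false. In the real data 33.3% of genes were called lower and 33.9% higher, which makes the adjustment less strict. The simulated rates thus do not give the share of real changes found.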

Additional observations from a re-analysis of the deposited data

Results flagged for a closer look

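Among 76 groups of member values (38 members in 2 groups), 4 held a library far from the rest of its group by the gap between it and its neighbour relative to the group's range, where chance gives about 3.8. Tomm34 stood at 15.5 CPM in Drp1 replicate 2 and between 9.54 and 11.2 CPM in the other Drp1 libraries. Timm10b stood at 73.9 CPM in control replicate 4 and between 61.4 and 63.8 CPM in the other controls, still below every Drp1 library. Control replicate 1 was low for Timm44, at 78.7 CPM against 94.1 to 103 CPM in the other controls, and for Clpx, at 10.5 CPM against 14.1 to 16.3 CPM.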

How the results depend on the processing

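Across 22 alternatives, 22 of the 27 called members (17 lower, 5 higher) kept their call and direction in each fit that tested them. The others, Samm50, Chchd4, Grpel1, Pmpca and Afg3l2, lost it with library totals alone and upper quartile scaling, and 3 of them under further settings given beside their values. Of members not called, Tomm7, Hspd1 and Tomm40 passed under 1 or 2 alternatives. No called member changed direction. Counts of lower members ran from 17 (library totals alone, upper quartile scaling) to 22 and of higher members from 5 to 7. With calls of at least 1.5-fold, 10 were lower and 1 higher. With the replicate number as a replicate block, 20 were lower and 5 higher, and 0 partner ratios passed the exact sign-flip test, which cannot go below p = 0.0625 with 5 pairs (0 also at an unadjusted p under 0.05). The numbers share no stated source: same-number libraries correlated from -0.18 to 0.36 in their deviations, and 4 of 5 Drp1 libraries correlated best with another number. Of the further import genes, DESeq2 called 1 higher, and library totals alone called 3 lower and 4 higher; of further proteases, library totals alone called 2 higher. Timm8a1 and Timm23 dropped out at a mean CPM of at least 5. Few counts limit these 2 genes.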

Other observations

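The libraries of a group took the same place for many members. Control replicate 1 was the highest control library for 18 of 38 members (47.4%), against 26.0% of all genes tested, and control replicate 4 the lowest for 18 (47.4%, against 27.1%). In the Drp1 group, replicate 2 was highest for 15 members (39.5%, against 28.2%) and replicate 5 lowest for 18 (47.4%, against 25.5%). Ribosomal RNA loci took 2.70% of counts in control replicate 1 and 4.05% to 4.72% in the other controls. They took 2.73% in Drp1 replicate 2, 2.45% in replicate 3 and 5.56% in replicate 5. Within groups the coefficient of variation of members ran from 4.54% (Samm50) to 50.5% (Pmpcb) in control and from 2.33% (Samm50) to 83.9% (Pmpcb) in Drp1 libraries.

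For 13 members, another counted gene starts within 1000 bases on the other strand. Chchd4 and Tmem43 start 157 bases apart, with log2 fold changes of -0.30 and 1.29. Timm8b and the complex II gene Sdhd start 98 bases apart and were at 0.59 and -0.13. Timm23 and Parg start 51 bases apart and were at -0.79 and -0.10, and Pmpca and Entr1 start 23 bases apart and were at -0.25 and 0.39. Timm17b and Pqbp1 start 88 bases apart and were at -0.09 and 0.26. Other pairs shared a sign: Htra2 and Aup1 (-1.26 and -0.44), Timm10b and Arfip2 (0.43 and 0.66), and Hspd1 and Hspe1 (0.08 and 0.21). Further pairs did not: Grpel2 and 1500015A07Rik (-0.76 and 0.85), Timm9 and 2700049A03Rik (-0.48 and 0.20), and Tomm34 and Stk4 (-0.01 and 0.04). No difference between neighbours was tested.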
